A study of Sus scrofa with 6 samples.

Results

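Heat shock and chaperone genes were followed in the lungs of piglets on either side of birth. Members were the rows of the mRNA table whose pig Ensembl symbol begins with HSPA, HSPB, HSPD, HSPE, HSPH, HSP90, DNAJ, PDIA or CCT and a digit, together with TCP1, CALR, CANX, XBP1, ERN1, DDIT3, ATF6, HSF1, HSF2 and the BAG genes from BAG1 to BAG6. This rule found 71 of the 14579 mRNAs, of which 9478 could be given a symbol. Of the 71 products, 38 work in the cytosol or nucleus, 19 in the endoplasmic reticulum (ER) and 6 in mitochondria. Another 4 are regulators of the stress responses (XBP1, ATF6, HSF1 and HSF2), and 4 are J-domain proteins for which no compartment was assigned (DNAJC4, DNAJC18, DNAJC25 and DNAJC28). Well-known members without a row matched by symbol, such as HSPA1A, HSPA1B, HSPA6, HSPB1, DDIT3 and ERN1, were not analysed here.

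The lungs came from female hybrid piglets with a Tibetan sire and a Meishan dam. The fetal group held 3 piglets from the last day before birth, and the neonatal group 3 piglets that were 2 days old, with different sows behind the groups and 1 library per piglet. The groups differed by no drug or other treatment in the labels, and per the methods all piglets were killed by bleeding after an injection of ketamine, an anaesthetic. The methods speak of both caesarean and parturition, so age, air breathing and the way of delivery cannot be told apart. The values are FPKM, fragments scaled to transcript length and to the number of mapped reads, which allow levels to be compared between genes. They hold no read counts, so the depth behind a single value is unknown and the spread between the 3 piglets of a group is the error used. Differences are given as neonatal minus fetal on log2(FPKM + 1), a scale that understates the change of low genes, and come from limma fitted to the whole table. A gene is said to have risen or fallen where its p, adjusted by the Benjamini-Hochberg method for all 14579 mRNAs, was 0.05 or less.

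Chaperones bind unfolded or partly folded proteins and keep them from aggregating. HSP70 proteins bind and release their clients in a cycle driven by ATP. J-domain proteins (the DNAJ genes) start this cycle, and nucleotide exchange factors reset it. The cytosol, the ER and the mitochondrion each have their own HSP70, and the ER adds lectin chaperones and protein disulfide isomerases for secreted and membrane proteins. In the cytosol these genes are controlled by heat shock factors, and in the ER by the unfolded protein response. In the lung the secretory load of the ER includes surfactant proteins and, in fibroblasts and muscle, matrix proteins.

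Summed FPKM ranged from 339491 to 471220 in the fetal libraries and from 491548 to 777982 in the neonatal libraries. The median difference of all mRNAs was 0.13, and it became -0.0090 with median-of-ratios size factors and -0.04 with quantile normalization, so small positive differences are read against this shift. The tissue label was borne out by SFTPC, which lay between 3171 and 8790 FPKM in the 6 lungs, and by SFTPB, between 621 and 1130 FPKM. Of the other marker lists, all 6 genes of dividing cells rose, and their sum went from 8.58 to 11.2 FPKM in the fetal lungs to between 71.0 and 89.5 FPKM in the neonatal lungs. Of 2 neutrophil markers found, S100A8 rose, and their sum went from 28.2 to 39.1 FPKM to between 188 and 287 FPKM. Of 7 muscle markers, ACTA2, CNN1 and TAGLN rose and TNNT2 fell, and the sum went from 352 to 578 FPKM to between 1052 and 1716 FPKM. None of 5 alveolar type II, 5 macrophage, 4 B and plasma cell, 3 erythroid and 2 ciliated markers passed in limma, where an unadjusted p under 0.05 was reached by 0, 3, 2, 0 and 1 of them. Over all mRNAs, 3535 of 14579 reached it. The type II sums were 4409 to 4987 and 5648 to 10580 FPKM, and the macrophage sums 266 to 633 and 468 to 1129 FPKM. B and plasma cell sums were 3.64 to 4.77 and 0.455 to 2.90 FPKM, with MS4A1 listed at 0 in neonatal piglet 2 and MZB1 in neonatal piglet 1. Erythroid sums were 1224 to 2669 and 890 to 1457 FPKM, and ciliated sums 41.2 to 70.9 and 39.8 to 47.1 FPKM. In bulk tissue, fewer cells of a type and less RNA per cell cannot be told apart, and the part of these cell types in the results that follow was not tested.

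Of the 71 members, 8 passed, against 6.87% of all mRNAs. The members were more abundant, with a median FPKM of 14.1 against 5.77. Among mRNAs with FPKM above 1 in at least 3 samples, 8 of 67 members passed, against 9.10% of 12449 mRNAs. The 7 that rose were DNAJB11, PDIA6, HSPA5, CALR, PDIA4, HSPH1 and HSPBP1, where 5.41% of all mRNAs rose. Only HSPA1L fell, where 1.45% of all mRNAs did. ER members made up 5 of the 8, from 19 members, and cytosolic members 3, from 38. None of the 6 mitochondrial members, the 4 regulators or the 4 unassigned J proteins passed in limma, and an unadjusted p under 0.05 was reached by 1, 0 and 0 of them. Over all mRNAs, 3535 of 14579 reached it. The FPKM of the groups did not overlap for 28 members, 39.4%, against 30.5% of all mRNAs. In 27 of them the neonatal values were the higher ones, against 20.9%, and in 1 the lower ones, against 9.64%. With median-of-ratios scaling this was 21 members, 29.6%, against 31.2%. The 8 calls were the same under other pseudocounts, a stricter filter, other scalings and without a variance trend. The 7 rises were lost when any of fetal piglets 1, 2 and 3 or neonatal piglets 2 and 3 was left out, each time leaving 0 rises, while without neonatal piglet 1 there were 8. The differences themselves stayed positive, from 1.15 to 1.48 for DNAJB11, 1.10 to 1.36 for PDIA6, 1.07 to 1.32 for HSPA5, 1.06 to 1.35 for CALR, 1.01 to 1.28 for PDIA4, 1.02 to 1.23 for HSPH1 and 0.94 to 1.26 for HSPBP1. HSPA1L stayed past the threshold with each of the 6 piglets left out in turn.

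**Figure D1:**
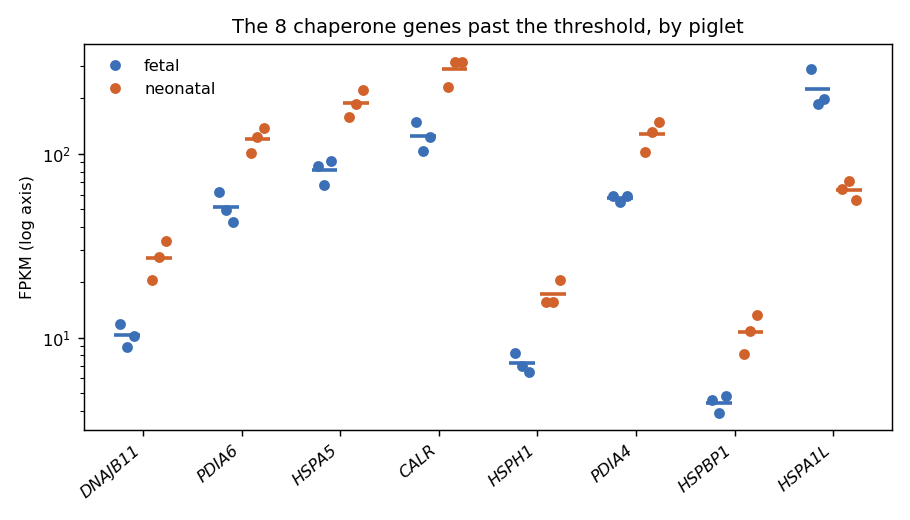
FPKM of the 8 chaperone genes past the threshold in each of the 3 fetal (blue) and 3 neonatal (orange) piglets, on a log axis, with bars at the group means. For 7 genes the neonatal points all lie above the fetal ones, and for HSPA1L they all lie below.

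The ER members that rose were folding factors of its lumen, with neonatal means between 2.23 and 2.64 times the fetal means. HSPA5 encodes BiP, the HSP70 of the ER and the protein that keeps the sensors of the unfolded protein response at rest. It stood at 85.5, 67.7 and 91.6 FPKM in the fetal lungs and at 159, 186 and 221 FPKM in the neonatal lungs. The groups did not overlap, and the neonatal mean was 2.31 times as high, with a difference of 1.20 (standard error 0.23, adjusted p = 0.0258). DNAJB11, also called ERdj3, is a J-domain cochaperone of BiP. It stood at 11.9, 8.88 and 10.1 FPKM before birth and at 20.7, 27.6 and 33.4 FPKM after it. Its difference was 1.30 (standard error 0.22, adjusted p = 0.0184), the largest of the 71 members on log2(FPKM + 1). By the ratio of group means it was exceeded by DNAJC27 alone, a J protein listed at means of 0.103 and 0.494 FPKM, which did not pass.

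PDIA6 and PDIA4 are disulfide isomerases, which form and reshuffle disulfide bonds in secreted proteins. PDIA6 had 62.0, 49.6 and 42.7 FPKM in the fetal lungs and 101, 124 and 138 FPKM in the neonatal lungs. PDIA4 had 58.6, 54.4 and 58.7 FPKM and then 103, 131 and 149 FPKM. Neither gene showed any overlap between the groups, and the fetal values of PDIA4 lay within a few FPKM of each other. The differences were 1.22 for PDIA6 (standard error 0.22, adjusted p = 0.0225) and 1.13 for PDIA4 (standard error 0.21, adjusted p = 0.0226). PDIA3, the isomerase that works with calnexin and calreticulin, did not pass, with 53.3, 47.3 and 67.6 FPKM and then 96.8, 63.5 and 90.9 FPKM. Its groups overlapped, since fetal piglet 3 lay above neonatal piglet 2 (difference 0.56, adjusted p = 0.206). PDIA5 also overlapped (difference 0.62, adjusted p = 0.239), and PDIA2, an isomerase best known from the pancreas, was at or under 0.898 FPKM in all 6 lungs.

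Calreticulin (CALR) and calnexin (CANX) are the lectin chaperones that hold newly made glycoproteins, the first free in the lumen and the second anchored in the membrane. CALR was the most abundant member by its mean over the 6 lungs, although HSPA1L and XBP1 had higher fetal means. It had 149, 104 and 124 FPKM in the fetal lungs and 230, 317 and 317 FPKM in the neonatal lungs. The groups did not overlap, and the difference was 1.19 (standard error 0.25, adjusted p = 0.0350). CANX was at 71.0, 59.0 and 57.9 FPKM and then at 60.3, 81.8 and 90.2 FPKM. Its groups overlapped through fetal piglet 1 and neonatal piglet 1 (difference 0.29, standard error 0.22, adjusted p = 0.458), and the difference turned to -0.06 with quantile normalization.

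HSP90B1, the HSP90 of the ER lumen (GRP94), missed the threshold. It had 130, 92.5 and 99.2 FPKM in the fetal lungs and 164, 238 and 266 FPKM in the neonatal lungs, without overlap, and its difference was 1.03 (standard error 0.27, adjusted p = 0.0650). With single piglets left out the adjusted p ran from 0.0399, without neonatal piglet 1, to 0.215, with differences from 0.89 to 1.24. Over the alternatives with all 6 piglets it ranged from 0.0561 to 0.166. The remaining luminal members did not pass either. DNAJC3, which blocks the ER stress kinase PERK and also assists BiP, had a difference of 0.57 (adjusted p = 0.151) with no overlap between 20.8 to 27.5 and 29.6 to 41.4 FPKM. DNAJC10, a J protein that reduces disulfide bonds, had a difference of 0.50 (adjusted p = 0.184), also without overlap. With median-of-ratios scaling the DNAJC10 groups overlapped. DNAJB9, a BiP cochaperone known as a target of XBP1, overlapped (difference 0.32, adjusted p = 0.501), as did HSPA13, a second HSP70-like protein of the ER (difference 0.25, adjusted p = 0.475).

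A split of the ER members into lumen and membrane was made after the values were seen and is given as a description. Of 13 luminal members, 5 passed and 8 did not overlap between the groups, with a median difference of 0.62, where 6.87% of all mRNAs passed and 30.5% did not overlap. Of 6 membrane members (CANX, DNAJB12, DNAJB14, DNAJC1, DNAJC14 and DNAJC16), none passed in limma or had an unadjusted p under 0.05, and 1 (DNAJC14) did not overlap. Their median difference was 0.26. Over all mRNAs, 3535 of 14579 had an unadjusted p under 0.05 in limma. DNAJB14, the member of the ER with the smallest difference (0.05), turned negative with median-of-ratios scaling, at -0.12, and with quantile normalization, at -0.14. The medians of the lumen and the membrane members were 0.46 and 0.09 with median-of-ratios scaling, where the median of all mRNAs was -0.0090. With that scaling, 7 luminal and 0 membrane members did not overlap between the groups, against 31.2% of all mRNAs.

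**Figure D2:**
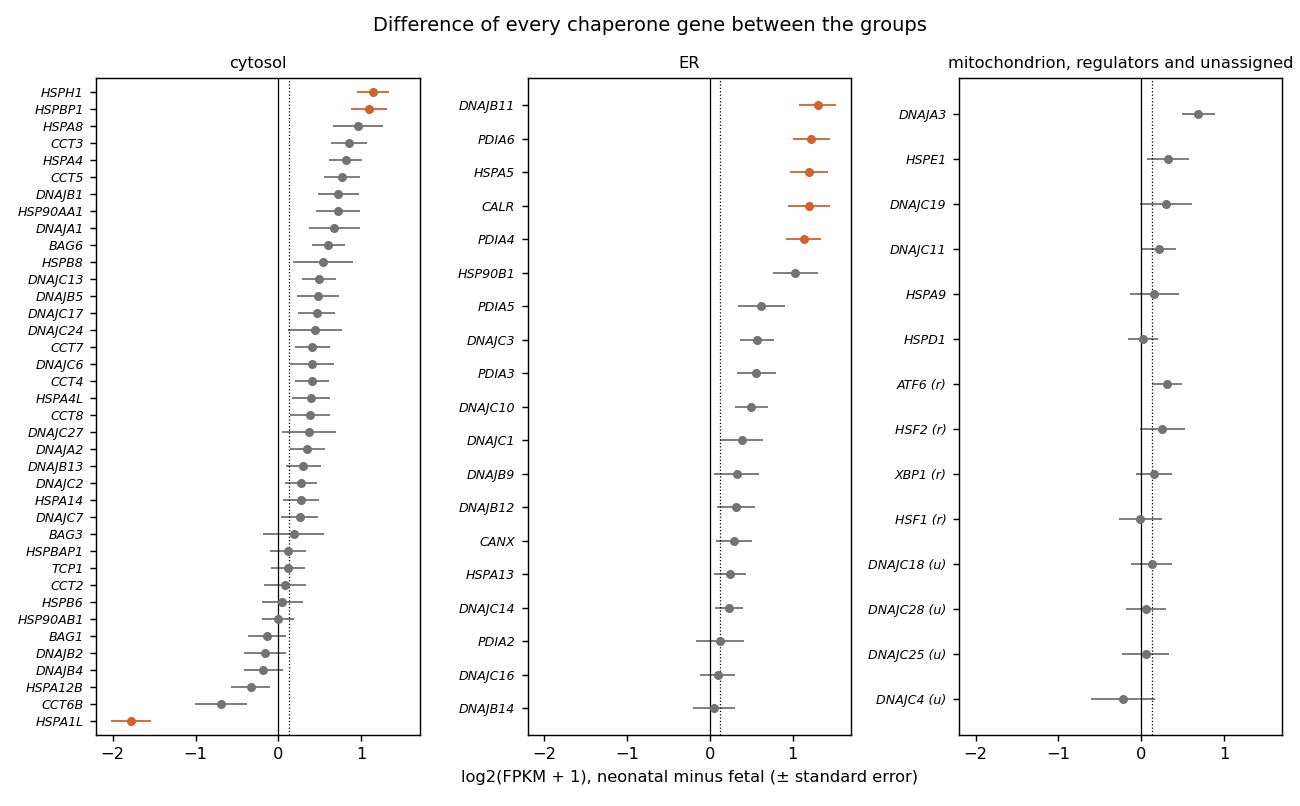
Difference of each of the 71 members between the groups on log2(FPKM + 1), neonatal minus fetal, with its standard error; orange marks the 8 members past the threshold, (r) regulators and (u) unassigned members, and the dotted line the median of all mRNAs at 0.13. The ER panel has 5 orange points above 1, the cytosol panel 2 above 1 and HSPA1L at -1.78, and the right panel none.

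In the cytosol the 2 members that rose were nucleotide exchange factors of HSP70. HSPH1 encodes HSP105, an HSP110 protein that also helps to dissolve aggregates. It stood at 8.24, 6.98 and 6.47 FPKM in the fetal lungs and at 15.5, 15.7 and 20.4 FPKM in the neonatal lungs, without overlap. The difference was 1.14 (standard error 0.19, adjusted p = 0.0168). HSPBP1, another such factor, enters the list only because its symbol starts like those of the small heat shock proteins. It had 4.59, 3.90 and 4.80 FPKM and then 8.11, 10.9 and 13.2 FPKM (difference 1.09, standard error 0.22, adjusted p = 0.0289). Its groups did not overlap either. HSPA4, a second HSP110 protein, had 12.3 to 17.4 FPKM and then 23.2 to 31.1 FPKM without overlap and missed the threshold (difference 0.81, adjusted p = 0.0574). HSPA4L, the third, had a difference of 0.39 (adjusted p = 0.324).

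HSPA1L was the single member that fell. It stood at 289, 187 and 198 FPKM in the fetal lungs and at 64.3, 71.3 and 55.9 FPKM in the neonatal lungs. The lowest fetal value was over 2 times the highest neonatal value, and the neonatal mean was 0.284 times the fetal mean. The difference was -1.78 (standard error 0.24, adjusted p = 0.0089). Leaving out single piglets moved it to values from -1.90 to -1.58. HSPA1L is known as a testis HSP70 that is close in sequence to the stress-inducible HSPA1A and HSPA1B. In the RefSeq annotation of Sscrofa11.1, a later build than the one the authors mapped to, the HSPA1L gene spans the gene that carries HSPA1A and HSPA1B as synonyms. Reads of the inducible genes can therefore be counted in this row, and the level of HSPA1L itself is uncertain.

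HSPA8, the constitutive HSP70 of the cytosol, was listed at only 5.76, 3.48 and 3.27 FPKM in the fetal lungs and at 6.22, 8.22 and 13.2 FPKM in the neonatal lungs. The groups did not overlap, but the neonatal values spread widely and the gene did not pass (difference 0.96, standard error 0.31, adjusted p = 0.111). HSPA8 is elsewhere one of the most abundant chaperones and has many processed copies in mammalian genomes, so its listed level is uncertain too. The other HSP70 relatives, HSPA12B, found in endothelium, and HSPA14, bound to ribosomes, had differences of -0.34 and 0.27 (adjusted p = 0.414 and 0.485).

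HSP90 of the cytosol matures kinases and steroid receptors and is made from HSP90AA1 and HSP90AB1. HSP90AA1, the stress-inducible form, had 130, 117 and 94.9 FPKM in the fetal lungs and 249, 170 and 152 FPKM in the neonatal lungs. Its groups did not overlap, and it did not pass (difference 0.72, standard error 0.26, adjusted p = 0.153). HSP90AB1, the constitutive form, had 65.4, 52.1 and 46.8 FPKM and then 55.5, 51.9 and 54.7 FPKM, with the neonatal values inside the fetal range (difference -0.0058, standard error 0.19, adjusted p = 0.987).

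TRiC, the ring-shaped chaperonin that folds actin and tubulin, is built from TCP1 and the CCT proteins, and none of its 8 rows passed in limma. An unadjusted p under 0.05 was reached by 2, CCT3 and CCT5, where 3535 of all 14579 mRNAs reached it. CCT3 had 42.2, 31.0 and 31.2 FPKM and then 51.9, 63.5 and 75.7 FPKM (difference 0.85, adjusted p = 0.0657). CCT5, the most abundant subunit, had 83.0, 66.3 and 72.1 FPKM and then 105, 124 and 153 FPKM (difference 0.77, adjusted p = 0.0863). Neither overlapped between the groups. CCT4, CCT7 and CCT8 had differences of 0.41, 0.41 and 0.38 (adjusted p between 0.268 and 0.375). TCP1 and CCT2 stood at 0.11 and 0.08, and both turned negative with median-of-ratios scaling, at -0.05 and -0.10. CCT6B, a subunit known from testis, was at or under 1.70 FPKM in the fetal lungs and listed at 0 in neonatal piglets 2 and 3. CCT6B alone had a negative difference, at -0.69, and CCT6A had no row matched by symbol. The other subunits ranged from 0.08 to 0.85, and their levels from 12.4 to 153 FPKM.

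The 14 cytosolic and nuclear J proteins had differences between -0.18 and 0.72, and none passed in limma. Where 3535 of all 14579 mRNAs had an unadjusted p under 0.05, 2 of these J proteins did. The largest difference was that of DNAJB1, the main heat-inducible J protein, with 18.0, 9.97 and 15.0 FPKM and then 21.6, 21.8 and 28.3 FPKM (difference 0.72, adjusted p = 0.130). DNAJA1, a farnesylated J protein, was the most abundant at 39.5 to 64.6 and 56.0 to 112 FPKM, with overlap (adjusted p = 0.233). The others (DNAJA2, DNAJB2, DNAJB4, DNAJB5, DNAJB13, DNAJC2, DNAJC6, DNAJC7, DNAJC13, DNAJC17, DNAJC24 and DNAJC27) had adjusted p values between 0.195 and 0.723. DNAJB13, a J protein of the axoneme of cilia and sperm tails, had 9.22 to 12.9 and 11.9 to 17.2 FPKM.

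Of the small heat shock proteins, which hold unfolded clients without ATP, 2 were found, both at low levels. HSPB8, which works with BAG3 in selective autophagy, had 1.38 to 5.49 and 3.87 to 5.64 FPKM (adjusted p = 0.398). HSPB6, known from muscle, had 0.983 to 1.40 and 0.713 to 1.88 FPKM (adjusted p = 0.922). BAG2, BAG4 and BAG5 had no row matched by symbol. Of the other BAG proteins, BAG6 had 35.0, 31.0 and 33.4 FPKM and then 42.7, 48.6 and 62.8 FPKM. BAG6, which guards membrane proteins on their way to the ER, did not overlap and did not pass (difference 0.60, adjusted p = 0.122). BAG1 and BAG3 had differences of -0.14 and 0.18 (adjusted p = 0.741 and 0.790). HSPBAP1, in the list by its symbol alone, stood at 0.11 (adjusted p = 0.780).

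The mitochondrial chaperones had the smallest median difference of the 3 compartments. HSPD1 (HSP60) and HSPE1 (HSP10) form the chaperonin of the matrix. HSPD1 had 13.8, 10.8 and 10.8 FPKM and then 12.2, 10.9 and 12.8 FPKM, with the neonatal values inside the fetal range (difference 0.02, standard error 0.18, adjusted p = 0.952). HSPE1 had 41.6, 30.2 and 40.1 FPKM and then 36.0, 44.5 and 62.6 FPKM (difference 0.32, adjusted p = 0.467). HSPA9 (mortalin), the HSP70 that pulls imported proteins into the matrix, had 11.2, 10.4 and 8.18 FPKM and then 15.0, 13.2 and 6.73 FPKM. Neonatal piglet 3 was thus the lowest of all 6 and neonatal piglet 1 the highest (difference 0.16, adjusted p = 0.776). The difference was -0.0018 with median-of-ratios scaling, and that of HSPD1 was -0.14.

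DNAJA3 (Tid1), a J-domain partner of mortalin, was the exception among the mitochondrial members. It had 15.76, 12.04 and 12.06 FPKM in the fetal lungs and 18.2, 24.0 and 24.0 FPKM in the neonatal lungs, without overlap, and did not pass (difference 0.69, standard error 0.20, adjusted p = 0.0869). DNAJC19, of the import motor, and DNAJC11, of the outer membrane, had differences of 0.30 and 0.21 (adjusted p = 0.600 and 0.561).

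None of the regulators passed, nor had any an unadjusted p under 0.05 in limma. XBP1, whose mRNA is spliced by ERN1 in the unfolded protein response, was the most abundant of them at 146, 141 and 123 FPKM in the fetal lungs and 136, 142 and 181 FPKM in the neonatal lungs. Its groups overlapped, and the difference was 0.16 (standard error 0.22, adjusted p = 0.691), which turned to -0.02 with median-of-ratios scaling and -0.32 with quantile normalization. A gene's FPKM does not separate spliced from unspliced XBP1. ATF6, the sensor that is cut to release a transcription factor, had 12.09, 11.98 and 10.82 FPKM and then 13.7, 13.1 and 17.4 FPKM, without overlap (difference 0.31, adjusted p = 0.335). With median-of-ratios scaling and quantile normalization the ATF6 difference was 0.14 and 0.10, and its groups overlapped under both. HSF1, the main heat shock factor, had 4.84, 4.22 and 5.12 FPKM and then 6.13, 5.46 and 2.94 FPKM (difference -0.01, adjusted p = 0.978). HSF2 had a difference of 0.25 (adjusted p = 0.605). In HSF1 and HSF2 alike, neonatal piglet 3 held the lowest value of all 6 lungs. For the 4 unassigned J proteins the differences lay between -0.22 and 0.13, with adjusted p values of 0.756 or more.

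By compartment, the median difference was 0.50 for the 19 ER members, 0.39 for the 38 cytosolic members and 0.25 for the 6 mitochondrial members, against 0.13 for all mRNAs. The medians were 0.33, 0.23 and 0.09 with median-of-ratios scaling, against -0.0090. All 19 ER members had a higher mean in the neonatal group, 17 with median-of-ratios scaling and 16 with quantile normalization. For the cytosol these counts were 31, 28 and 28 of 38, and for the mitochondria 6, 4 and 4 of 6. With each gene set against its own fetal mean, the ER median was 0.17, -0.10 and -0.01 in the fetal lungs and 0.27, 0.61 and 0.70 in the neonatal lungs. For the cytosol it was 0.20, -0.14 and -0.13 and then 0.28, 0.28 and 0.55. For the mitochondria it was 0.18, -0.11 and -0.11 and then 0.09, 0.33 and 0.58, so that neonatal piglet 1 lay below fetal piglet 1. The order of the neonatal lungs was shared with the summed FPKM of the libraries. Neonatal piglet 3 held the highest neonatal value of 14 of the 19 ER members and of 44.8% of all mRNAs. The part of library composition in this order was not tested.

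**Figure D3:**
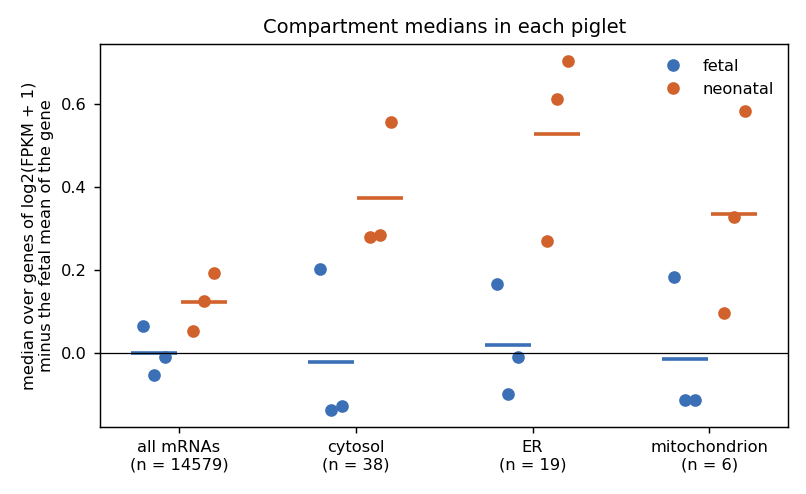
Median over the genes of a compartment of log2(FPKM + 1), after subtracting each gene's fetal mean, in each fetal (blue) and neonatal (orange) piglet, with bars at the group means. The ER and cytosol points do not overlap between groups, the mitochondrial points do, and the neonatal points of all mRNAs reach 0.19.

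In summed FPKM, the ER members held 743, 591 and 660 in the fetal lungs and 1060, 1327 and 1479 in the neonatal lungs. The neonatal mean of this sum was 1.94 times the fetal mean, where the sum of all mRNAs was 1.52 times its fetal mean. The cytosolic members held 1120, 847 and 850 and then 1031, 1028 and 1196, with overlap and a ratio of means of 1.16. Without HSPA1L, whose level is uncertain, the cytosolic members held 831, 660.3 and 652 and then 966, 956 and 1140.2, without overlap, a choice made after its values were seen. The ratio of the ER sum to the cytosolic sum does not change when a library is multiplied by a single factor. It was 0.663, 0.698 and 0.777 before birth and 1.03, 1.29 and 1.24 after it. Without HSPA1L the ratio was 0.894, 0.895 and 1.01 and then 1.10, 1.39 and 1.30, still without overlap. The ratio of the ER sum to the mitochondrial sum was 6.48, 6.60 and 6.75 and then 10.1, 9.93 and 9.82. These sums rest mainly on the most abundant genes and are given as descriptions. HSPA8 enters the cytosolic sum at its uncertain listed level, and HSPA1A, HSPA1B and HSPB1 had no row matched by symbol. Whether the ER or the cytosolic chaperones held more mRNA is therefore not settled by these sums.

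Within each library, 4 pairs of related proteins from different compartments were also set against each other as log2 ratios of FPKM + 1. The ratio of HSP90B1 to HSP90AB1 was 0.98, 0.82 and 1.07 in the fetal lungs and 1.54, 2.17 and 2.26 in the neonatal lungs, a gain of 1.04 without overlap. This reached p = 0.1 in an exact permutation test (two-sided), the smallest p that 3 piglets against 3 allow, and 0.4 after adjustment over the 4 ratios. The ratio of HSPA5 to HSPA9 was 2.83, 2.60 and 3.33 and then 3.32, 3.72 and 4.84, with overlap (gain 1.04, exact permutation test, p = 0.2, adjusted p = 0.4). The ratio of HSPA5 to HSPA8 gained 0.24 with wide overlap (exact permutation test, p = 0.4, adjusted p = 0.4). That of HSPA9 to HSPA8 lost ground in neonatal piglet 3 above all, at 1.15, 0.62 and -0.88 after 0.85, 1.34 and 1.11 (difference -0.80, exact permutation test, p = 0.3, adjusted p = 0.4). No ratio could reach 0.05 in this design. The ratios to HSPA8 also rest on its listed level, which is uncertain.

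**Figure D4:**
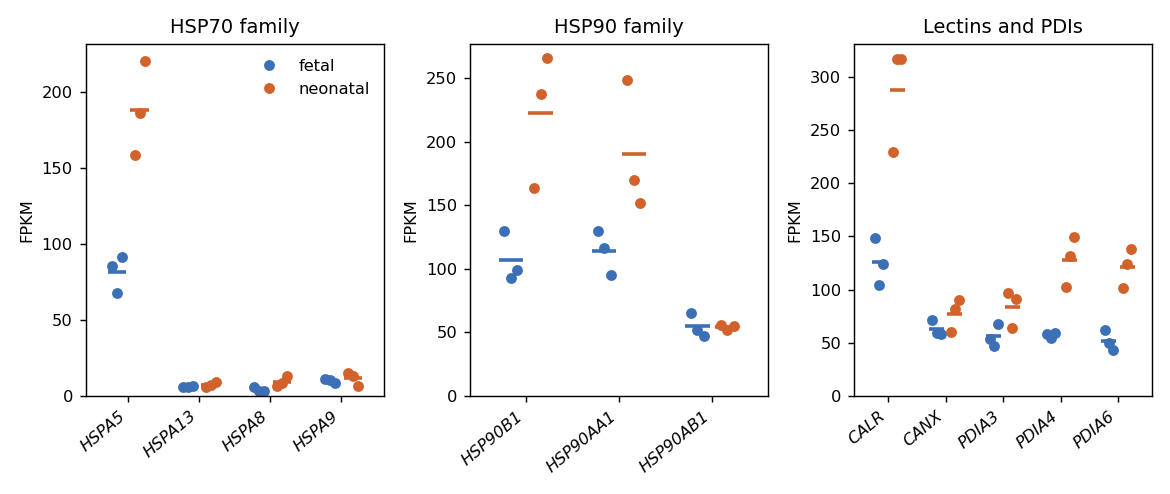
FPKM of related chaperones in each fetal (blue) and neonatal (orange) piglet, with bars at the group means, on linear axes from 0. HSPA5, HSP90B1, CALR, PDIA4 and PDIA6 of the ER and HSPA8 and HSP90AA1 of the cytosol separate by group. HSPA13, PDIA3 and CANX of the ER, HSP90AB1 of the cytosol and HSPA9 of mitochondria overlap.

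Other folding and quality control genes outside the rule were taken from a list of 60, of which 33 had a row. Of these 33, 2 rose and none fell, against 6.87% of all mRNAs called, and both are ER genes. CRELD2, a secreted ER protein known to respond to ER stress, went from 11.7, 9.62 and 13.8 FPKM to 28.0, 39.8 and 44.2 FPKM (difference 1.58, standard error 0.23, adjusted p = 0.0109). HYOU1 (GRP170), the nucleotide exchange factor of BiP, went from 9.37, 8.05 and 10.5 FPKM to 20.0, 26.7 and 26.6 FPKM (difference 1.30, standard error 0.19, adjusted p = 0.0119). Neither overlapped. The count of 2 became 0 without fetal piglet 1, fetal piglet 2, neonatal piglet 2 or neonatal piglet 3, and 4 without neonatal piglet 1. SIL1, which shares the task of HYOU1, had a difference of 0.78 without overlap (adjusted p = 0.108).

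Of the cytosolic cochaperones on that list, STIP1, which hands clients from HSP70 to HSP90, came closest, with 36.1 to 49.5 and 63.6 to 104 FPKM (difference 0.97, adjusted p = 0.0557). FKBP5, an HSP90 cochaperone induced by glucocorticoids, pointed the other way, with 28.8, 11.2 and 11.1 FPKM and then 8.09, 5.97 and 4.08 FPKM. Its groups did not overlap, but fetal piglet 1 stood far above the other fetal lungs (difference -1.26, standard error 0.39, adjusted p = 0.106). TRAP1, the HSP90 of mitochondria, had 11.4 to 17.6 and 17.5 to 21.0 FPKM (difference 0.43, adjusted p = 0.245). Medians were 0.23 for the 16 ER genes, 0.20 for the 12 cytosolic genes and 0.41 for the 5 mitochondrial genes. With median-of-ratios scaling they were 0.08, 0.03 and 0.24.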

How the data were processed

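The mRNA table the authors deposited holds FPKM, made with Cufflinks 2.2.1 from quality-filtered reads of strand-specific Ribo-Zero libraries mapped to Sscrofa10.2 with TopHat 2.1.0. All 14579 rows had FPKM above 0.5 in at least 1 sample. The lncRNA table was not used. The 6 value columns were matched to samples by name. Symbols came from a reference table of Ensembl identifiers.

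FPKM was analysed as log2(FPKM + 1) in limma 3.58.1 (R 4.3.3) with a variance trend over the whole table. Ratios were tested in Python 3.11.15 with scipy 1.17.1. Data were also simulated with the spread of these 14579 mRNAs, and log2 shifts of 1, 2 and 4 were each given to 200 mRNAs. Of the 200, 0, 157 and 189 were recovered, with 1, 7 and 13 false calls. The 7 rises reported here are smaller than 2. The simulation held fewer shifted mRNAs than the 1001 that passed in the real data, which makes the Benjamini-Hochberg adjustment stricter. It therefore cannot tell how often rises of the size reported here would be found.

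Members, lists and tests were chosen with earlier results of these data known. Named by rule were members past the threshold, the 3 most abundant and the most changed of each compartment, the regulators, TRiC subunits and BAG genes. In the other lists these were the 3 most changed genes past the threshold. Others were named for their role after their values were seen. Alternatives were pseudocounts of 0.5 and 0.1, a filter of 3 samples with FPKM above 1, median-of-ratios and quantile scaling, no trend, a replicate block, and each sample left out. The study's own fold changes and q values were not used.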

Additional observations from a re-analysis of the deposited data

How the results depend on the processing

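The same 8 members passed under both other pseudocounts, the stricter filter, both other scalings and without a variance trend. With a replicate block, 0 members rose, 0 ER members passed and 1 cytosolic member, HSPA1L, passed. The replicate numbers do not pair the piglets, which came from different sows: deviations of piglets with the same number from their group means correlated at -0.04, -0.0043 and 0.00047, and 0 of 6 piglets correlated best with their own number. With 1 piglet left out, between 0 and 8 members rose, 1 fell, between 0 and 6 ER members and between 1 and 3 cytosolic members passed, and between 0 and 4 of the other folding genes did. HSP90B1 was the added rise, without neonatal piglet 1. Over all mRNAs, 1001 passed in the fit reported, 401 with the block and between 196 and 944 with 1 piglet left out. Of the calls, 78.8% were rises, against 66.0% with median-of-ratios scaling and 57.9% with quantile normalization. Quantile normalization brought the medians to 0.22 for the ER, 0.16 for the cytosol and 0.018 for the mitochondria, and turned the gain of HSPA5 over HSPA8 to -0.020. The cause of these changes was not tested.

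Of the 71 members, 62 had a higher neonatal mean, against 51 with median-of-ratios scaling and 50 with quantile normalization. With median-of-ratios scaling, CCT2 stood at -0.10, DNAJB14 at -0.12, HSPD1 at -0.14, TCP1 at -0.054 and XBP1 at -0.022. With quantile normalization the same genes stood at -0.25, -0.14, -0.17, -0.092 and -0.32. HSPA9, DNAJC16, HSPB6, DNAJC18, DNAJC25 and DNAJC28 also turned, to between -0.11 (DNAJC25) and -0.0018 (HSPA9) with the first scaling and between -0.12 (DNAJC25) and -0.0077 (HSPA9) with the second. CANX turned with quantile normalization alone, at -0.060. With 1 piglet left out, BAG1 ranged from -0.27 to 0.082, BAG3 from -0.19 to 0.54, CCT2 from -0.14 to 0.22, DNAJB14 from -0.21 to 0.19, HSF1 from -0.18 to 0.25, HSPD1 from -0.033 to 0.13 and TCP1 from -0.0041 to 0.27. None of these passed under any setting. The tables hold no counts, so the precision that depth gives to low members such as PDIA2, DNAJC27 and CCT6B is unknown.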
